A study of Mus musculus with 14 samples.

Results

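Heat shock proteins of the cytosol were followed in left ventricles of mice with a diet-induced heart failure with preserved ejection fraction (HFpEF), with and without a hairpin directed at Foxo1, a transcription factor. The 10 genes were chosen by symbol, with earlier results of these data known, and the choice applies no cut on a measured value: Hspa1a, Hspa1b, Hspa8, Hsph1, Dnajb1 and Hsp90aa1 encode chaperones and a co-chaperone of the HSP70 and HSP90 machinery, and Hspb1, Hspb6, Hspb7 and Cryab encode small heat shock proteins. All 10 were found among the 24054 genes of the count table, and all 10 were among the 13588 genes with enough counts to be tested. The mice were C56Bl6, in the spelling of the labels. The HFpEF-FoxO1-sh group (5 libraries) was given, over 6 weeks, the High-Fat + L-NAME diet and an adeno-associated virus (AAV) carrying a FoxO1 hairpin for 4 weeks. The HFpEF-scr group (4 libraries) had the same diet over 6 weeks and an AAV carrying a scrambled hairpin for 4 weeks. The Control group (5 libraries) had a standard diet for 10 weeks, and its labels name no virus, so diet and virus cannot be told apart in any comparison with it. L-NAME is an inhibitor of nitric oxide synthase that raises blood pressure. The labels give no sex and no age, name no promoter or capsid for the virus, and do not say that each library is a separate animal, so the p-values measure the spread between these libraries.

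HSP70 chaperones bind exposed hydrophobic stretches of unfolded proteins in a cycle of ATP binding and hydrolysis. J-domain proteins such as the Dnajb1 product start hydrolysis, and HSP110 proteins such as the Hsph1 product exchange the nucleotide. HSP90 takes over clients that are nearly folded, among them kinases and receptors. Small heat shock proteins use no ATP. They form oligomers that hold unfolding proteins in solution, and in heart muscle they associate with desmin, filamin C and other proteins of the sarcomere and its Z-disc. The inducible genes of the set, with Hspa1a and Hspa1b as the best known, are transcribed after stress under heat shock factor 1, which binds repeated GAA units on alternating strands, whereas Hspa8 is the constitutive HSP70.

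Sequencing depth, as the total of expected counts in units of 1000000 (M), was 13.6 to 15.4 M in HFpEF-FoxO1-sh, 14.0 to 15.4 M in HFpEF-scr and 13.2 to 21.2 M in Control libraries. Control 1 was the deepest, at 21.2 M. The 8 heart muscle markers (Myh6, Tnnt2 and others) summed to between 95155 and 105520 counts per 1000000 (CPM) in HFpEF-FoxO1-sh, 91244 and 102174 CPM in HFpEF-scr and 102054 and 109396 CPM in Control libraries. HFpEF-scr 1 stood apart in red cell markers, with a sum of 6024 CPM where the other HFpEF-scr libraries had 538 to 1110 CPM. Without it, Hspa1a, described below, had a log2 fold change of 1.54 for HFpEF-scr against Control (edgeR adjusted p = 0.0108) and of -1.39 for HFpEF-FoxO1-sh against HFpEF-scr (edgeR adjusted p = 0.0443). Of the atrial markers, Sln and Myl7 had too few counts to be tested, and so did all 4 fat cell markers. The other atrial markers, Nppa and Myl4, summed to 42.1 to 70.4 CPM in HFpEF-FoxO1-sh, 45.9 to 149.7 CPM in HFpEF-scr and 95.7 to 187.7 CPM in Control libraries, so that HFpEF-FoxO1-sh did not overlap with Control. Most of the sum was Nppa, which fell in HFpEF-FoxO1-sh against Control (log2 fold change -1.37 ± 0.27, edgeR adjusted p = 0.00336), whereas Myl4 averaged 1.87 CPM in HFpEF-FoxO1-sh and 1.94 CPM in Control libraries. The part of atrial tissue in the heat shock transcripts was not tested. Foxo1, the target of the hairpin, averaged 42.4 ± 2.56 CPM in HFpEF-FoxO1-sh (SD, n = 5), 43.5 ± 3.74 CPM in HFpEF-scr (SD, n = 4) and 44.0 ± 1.93 CPM in Control libraries (SD, n = 5). It was not called in any comparison (log2 fold change of -0.04 ± 0.06, SE, for HFpEF-FoxO1-sh against HFpEF-scr, edgeR adjusted p = 0.780). For HFpEF-FoxO1-sh against HFpEF-scr its 95% interval ran from a change of -10.9% to 6.42%. A larger fall of Foxo1 messenger RNA in whole ventricle lies outside that interval. The label of the hairpin group was thus not borne out at the level of messenger RNA, and FoxO1 protein was not tested. These are pieces of whole ventricle, in which fewer cells of a type and less RNA per cell cannot be told apart.

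Corrected for transcript length, the 3 muscle-enriched small heat shock transcripts were the most abundant of the set. In Control libraries Cryab, the αB-crystallin gene, reached 1024 ± 48.1 CPM per kilobase (SD, n = 5). Hspb7 reached 995 ± 80.1 and Hspb6 897 ± 71.1 CPM per kilobase on the same scale, and the ranges of Cryab and Hspb7 over the libraries overlapped. Hspa8 followed with 641 ± 90.5, then Hspb1 with 212 ± 33.6 and Hsp90aa1 with 47.1 ± 11.5 CPM per kilobase. Lowest were Hsph1 at 17.0 ± 4.48, Dnajb1 at 4.59 ± 0.910, Hspa1a at 1.66 ± 0.899 and Hspa1b at 1.61 ± 0.799 CPM per kilobase. The order at the ends was not fixed: in HFpEF-FoxO1-sh libraries Hspb7 stood above Cryab and Hspa1b above Hspa1a, within the spread of the libraries. From the most to the least abundant, transcript levels of the set therefore covered a wide range, and the inducible HSP70 pair sat at its bottom in every group.

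Some of these genes share sequence with others, which bears on how reads could be assigned. Hspa1a (GRCm38 chromosome 17, 34969190 to 34972156, minus strand) and Hspa1b (chromosome 17, 34956436 to 34959238, minus strand) are neighbours with a single exon each. Their coding sequences are 99.43% identical, and 58.81% of the stretches of 50 bases in the Hspa1a transcript occur in that of Hspa1b. The deposited counts divide such reads by estimation, so the split between the pair is uncertain, and their sum is given below beside the separate values. Hspa8 (chromosome 9, 40800984 to 40810087, plus strand) shares 74.84% of such stretches with other genes of the annotation, Hsp90aa1 (chromosome 12, 110690605 to 110702728, minus strand) 58.51% and Hspb1 (chromosome 5, 135887919 to 135889563, plus strand) 60.42%. The main partners of these 3 genes, by share of stretches, were copies that the count table does not list. Cryab (chromosome 9, 50751325 to 50756636, plus strand) overlaps Hspb2 on the opposite strand over 17.04% of its exon bases. Hspa1a overlaps Gm20481, also on the opposite strand, over 19.01% of its exon bases, and Hspb6 overlaps Proser3 on the opposite strand over 5.31%. Whether the counting used strand is not given in the sources used here, so reads from these overlaps cannot be assigned to a strand. Hsph1 (chromosome 5, 149614287 to 149636376, minus strand) and Hspb6 (chromosome 7, 30552178 to 30555443, plus strand) shared no stretch of 50 bases with another gene. For Dnajb1 (chromosome 8, 83608193 to 83612653, plus strand) the share was 0.44% and for Hspb7 (chromosome 4, 141420779 to 141425311, plus strand) it was 1.4%.

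The members also differ in the letters bound by heat shock factor 1. Of the 10 genes, 7 have a promoter window in the RefSeq table used here (GRCm38.p6, 250 bases before to 50 after the start). A pair of inverted units (GAA, any 2 bases and TTC, or TTC, any 2 bases and GAA, each of which covers both strands) was present in a window of 5 of these genes: Hspa1a, Hspa1b, Hsph1, Hspb1 and Hspb6. Such a pair is present in 15.1% of all 32851 promoter windows. That share is per window, whereas Hsph1, Dnajb1 and Hspb6 have 2 windows each, and only 1 of the 2 of Hspb6 matches. Hspa1a and Hspa1b are near copies here and do not count as separate cases. A run of 3 alternating units was present only in Hsph1 among the members, and in 0.603% of all windows. No pair was found in the windows of Dnajb1 and Hspb7. The 150 bases before the start are shown for Hspa1a, the member with the largest changes, for Hsph1 and Hspb1, which stand for the 2 protein families, and for Hspb7, an abundant member with no match. They run 5′ to 3′ on the strand of the gene (chr17:34972157-34972306, chr5:149636337-149636486, chr5:135887769-135887918 and chr4:141420629-141420778), with the pair of units in capitals.
Hspa1a: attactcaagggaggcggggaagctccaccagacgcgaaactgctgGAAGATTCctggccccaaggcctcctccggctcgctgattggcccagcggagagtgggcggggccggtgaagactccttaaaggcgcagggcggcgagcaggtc
Hsph1: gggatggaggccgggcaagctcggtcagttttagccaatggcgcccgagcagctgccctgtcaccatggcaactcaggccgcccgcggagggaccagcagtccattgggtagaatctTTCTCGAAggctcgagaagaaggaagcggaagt
Hspb1: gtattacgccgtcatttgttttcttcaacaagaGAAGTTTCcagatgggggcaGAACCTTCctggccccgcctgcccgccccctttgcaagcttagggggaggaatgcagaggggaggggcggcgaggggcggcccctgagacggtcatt
Hspb7: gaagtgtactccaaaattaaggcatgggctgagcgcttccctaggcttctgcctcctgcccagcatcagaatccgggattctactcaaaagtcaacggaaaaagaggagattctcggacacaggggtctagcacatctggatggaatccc
The window of Hspa1b differs from that of Hspa1a at 1 of these 150 bases. In Hsph1 the remaining units lie after the start and are not printed. A match of letters is a description of the window and not a measured binding site.

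**Figure D1:**
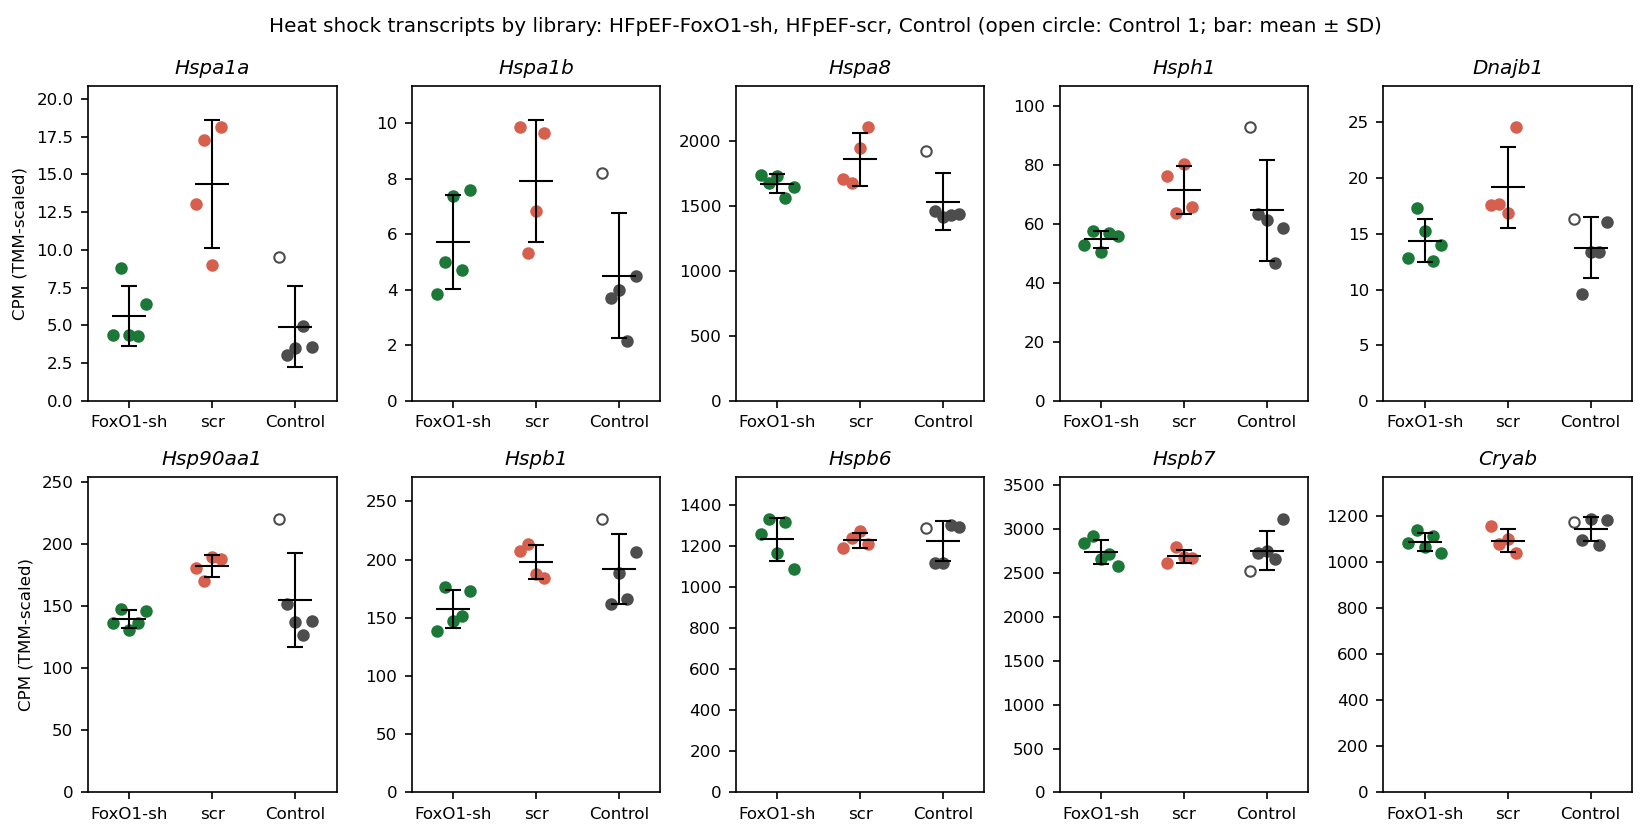
Counts per 1000000 (CPM) of each of the 10 heat shock transcripts in every library (points), with the mean and SD of the group (bars), for HFpEF-FoxO1-sh (n = 5), HFpEF-scr (n = 4) and Control (n = 5), each panel on its own linear axis from 0. Hspa1a is highest in HFpEF-scr, Control 1 (open circle) lies above the other Control libraries in 7 panels, and the libraries of Hspb6, Hspb7 and Cryab overlap across the groups.

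The first comparison asks how these transcripts differed in HFpEF hearts that received the scrambled hairpin. Hspa1a, the stress-inducible HSP70, measured 13.0, 17.3, 9.03 and 18.1 CPM in HFpEF-scr 1 to 4, against 9.51, 3.04, 3.52, 4.99 and 3.54 CPM in Control 1 to 5. All 4 HFpEF-scr values lay above those of Control 2 to 5, and HFpEF-scr 3 lay just below Control 1. Hspa1a rose 2.82-fold in HFpEF-scr (95% interval 1.81 to 4.41, log2 fold change 1.50 ± 0.30, SE), with an adjusted p of 0.00853 from the quasi-likelihood test of edgeR with Benjamini-Hochberg adjustment over 13588 genes. It was the 1 member of 10 that was called, where 7.37% of all genes tested were called and 3.66% were called as rises. The median log2 fold change of the members was 0.19, and that of all genes tested was 0.00.

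The other 5 genes of the HSP70 and HSP90 machinery had higher means in HFpEF-scr but were not called. Hspa1b measured 9.85, 5.33, 6.85 and 9.64 CPM in HFpEF-scr 1 to 4, against 8.20, 3.71, 3.98, 2.16 and 4.50 CPM in Control 1 to 5 (log2 fold change 0.77 ± 0.30, edgeR adjusted p = 0.126). Dnajb1, the J-domain partner of HSP70, measured 17.6, 17.7, 16.9 and 24.6 CPM in HFpEF-scr 1 to 4, against 16.3, 9.57, 13.4, 13.4 and 16.1 CPM in Control 1 to 5. Dnajb1 was the 1 member whose groups did not overlap, which held for 8.93% of all genes and as a higher HFpEF-scr group for 4.29% (log2 fold change 0.47 ± 0.15, edgeR adjusted p = 0.0588). Hspa8, the constitutive HSP70, measured 1707, 1678, 1943 and 2107 CPM in HFpEF-scr 1 to 4, against 1920, 1464, 1414, 1428 and 1441 CPM in Control 1 to 5. The gap to Control 2 to 5 was wide and Control 1 fell among the HFpEF-scr values (log2 fold change 0.28 ± 0.09, edgeR adjusted p = 0.0582). Hsp90aa1, the inducible HSP90, gave 0.23 ± 0.12 (edgeR adjusted p = 0.241) and Hsph1 gave 0.14 ± 0.14 (edgeR adjusted p = 0.573) on the log2 scale. At an unadjusted p under 0.05, 4 members were higher in HFpEF-scr and 0 were lower, where 23.6% of all genes passed that threshold and 12% passed it as higher. DESeq2 called 3 members, Hspa1a, Hspa8 and Dnajb1, and 1302 of all genes, where edgeR called 1001.

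The number of members called depended on Control 1, among other settings. Control 1 was the highest Control library in 7 of the 10 members, namely the 6 genes of the HSP70 and HSP90 machinery and Hspb1, and the lowest in Hspb7. In Hsp90aa1 it stood at 220.3 CPM, above all HFpEF-scr libraries (180.9, 170.3, 189.1 and 188.0 CPM in HFpEF-scr 1 to 4), whereas Control 2 to 5 had 151.2, 137.0, 126.5 and 137.6 CPM. In Hsph1 it stood at 93.0 CPM, against 76.4, 63.8, 80.5 and 65.9 CPM in HFpEF-scr 1 to 4 and 63.5, 61.3, 47.0 and 58.8 CPM in Control 2 to 5. Without Control 1, HFpEF-scr against the other 4 Control libraries gave 6 members called, all as rises and all 6 without overlap of the groups, where 8.17% of all genes were called, 4.08% were called as rises and 6.77% lay above without overlap. Control 1 was singled out after its values were seen, as the highest Control library in these same 6 genes, so leaving it out raises their fold changes and removes overlap by construction. For the same reason the SE and adjusted p without Control 1 describe the remaining libraries and are no test of these 6 genes. The shares cover all genes, which were not chosen that way, and give no measure of how unusual the 6 calls are.

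Those 6 were the genes of the HSP70 and HSP90 machinery, and their edgeR values without Control 1 are given as a description. Hspa1a rose 3.79-fold (log2 fold change 1.92 ± 0.26, edgeR adjusted p = 5.44e-04) and Hspa1b 2.20-fold (1.14 ± 0.26 on the log2 scale, edgeR adjusted p = 0.0161). Hsp90aa1 rose 1.32-fold (0.40 ± 0.06 on the log2 scale, edgeR adjusted p = 9.16e-04), and Hspa8 rose 1.29-fold (0.37 ± 0.06 on the log2 scale, edgeR adjusted p = 0.00248). Dnajb1 rose 1.46-fold (edgeR adjusted p = 0.0375) and Hsph1 1.24-fold (edgeR adjusted p = 0.0434). The 4 small heat shock genes were not called without Control 1 either, with log2 fold changes of 0.13 for Hspb1, 0.02 for Hspb6, -0.07 for Hspb7 and -0.05 for Cryab. Control 1 was also the deepest library, and its immediate early score (defined below) of 4.45 was neither the lowest nor the highest of the Control libraries. The part of its depth in these values was not tested.

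**Figure D2:**
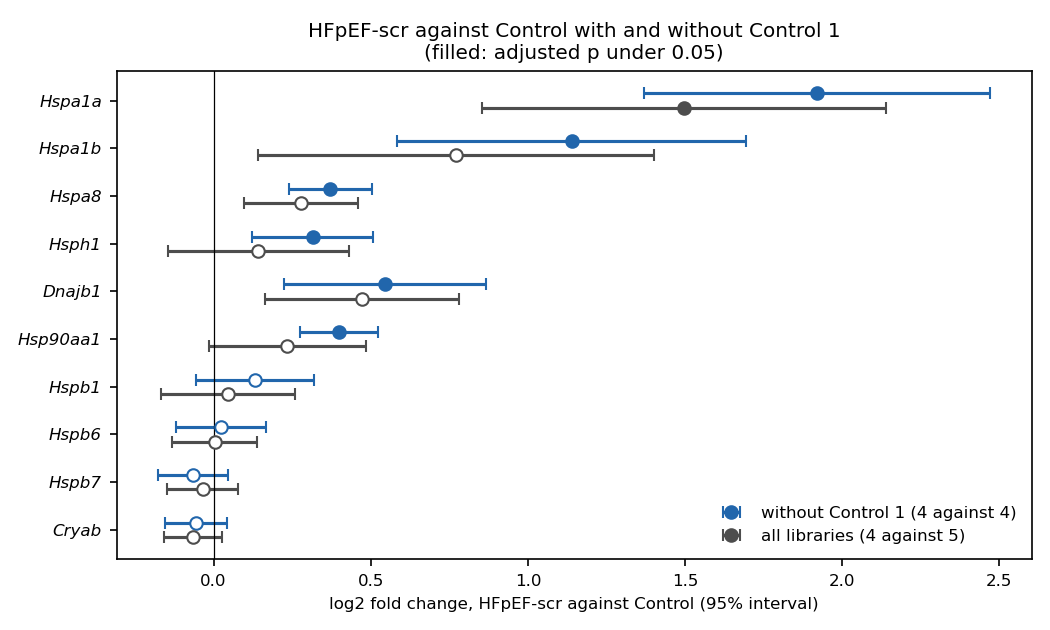
Log2 fold change of each member for HFpEF-scr against Control, with the 95% interval, without Control 1 (upper mark, 4 against 4 libraries) and with all libraries (lower mark, 4 against 5). Filled marks have an adjusted p under 0.05: 6 members without Control 1 and Hspa1a alone with it. Control 1 was chosen after its values were seen, so the upper marks are a description.

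The second comparison asks how these transcripts differed between HFpEF hearts labelled with the FoxO1 hairpin and those with the scrambled hairpin. Hspa1a measured 4.38, 8.81, 4.35, 4.29 and 6.40 CPM in HFpEF-FoxO1-sh 1 to 5, against the 13.0, 17.3, 9.03 and 18.1 CPM of HFpEF-scr 1 to 4. The groups did not overlap, although HFpEF-FoxO1-sh 2 came close to HFpEF-scr 3. Hspa1a fell to 0.392 of its HFpEF-scr level in HFpEF-FoxO1-sh (95% interval 0.251 to 0.613, log2 fold change -1.35 ± 0.30, SE, edgeR adjusted p = 0.0271). It was the 1 member of 10 that was called, where 3.58% of all genes were called and 2.26% were called as falls. This fall uses the same HFpEF-scr libraries as the rise against Control, so the pair of changes is not independent. The call was kept in 13 of 18 alternative analyses. It was lost without HFpEF-scr 2 (edgeR adjusted p = 0.0590), without HFpEF-FoxO1-sh 1, 3 or 4 (adjusted p = 0.0712, 0.0580 and 0.0695) and with the immediate early score as a covariate (adjusted p = 0.0917).

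A further 3 members lay entirely below HFpEF-scr in HFpEF-FoxO1-sh without being called. That made 4 members of 10 without overlap, where 8.34% of all genes did not overlap and 4.23% lay below. Hsp90aa1 measured 136.4, 147.3, 130.5, 135.9 and 146.0 CPM in HFpEF-FoxO1-sh 1 to 5, against 180.9, 170.3, 189.1 and 188.0 CPM in HFpEF-scr 1 to 4. The highest HFpEF-FoxO1-sh library was thus well below the lowest HFpEF-scr library (log2 fold change -0.39 ± 0.12, edgeR adjusted p = 0.0743). Hsph1 measured 53.0, 57.6, 50.6, 57.0 and 56.1 CPM in HFpEF-FoxO1-sh 1 to 5, against 76.4, 63.8, 80.5 and 65.9 CPM in HFpEF-scr 1 to 4 (log2 fold change -0.39 ± 0.14, edgeR adjusted p = 0.122). Hspb1, a small heat shock protein that acts on actin filaments, measured 139.0, 176.6, 146.9, 151.8 and 173.4 CPM in HFpEF-FoxO1-sh 1 to 5, against 207.7, 213.7, 187.2 and 183.9 CPM in HFpEF-scr 1 to 4 (log2 fold change -0.33 ± 0.10, edgeR adjusted p = 0.0729).

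In the same comparison Dnajb1 had a log2 fold change of -0.41 ± 0.15 (edgeR adjusted p = 0.118), Hspa1b of -0.47 ± 0.30 (edgeR adjusted p = 0.406) and Hspa8 of -0.15 ± 0.09 (edgeR adjusted p = 0.340). Their groups overlapped: Dnajb1 had 12.8, 17.3, 15.2, 12.6 and 14.0 CPM in HFpEF-FoxO1-sh 1 to 5, and the second of these exceeded HFpEF-scr 3. At an unadjusted p under 0.05, 5 members were lower in HFpEF-FoxO1-sh and 0 were higher, where 19.7% of all genes passed that threshold and 10.4% passed it as lower. The median log2 fold change of the 10 members was -0.36, against 0.00 over all genes tested. DESeq2 called 3 members, Hspa1a, Hsp90aa1 (adjusted p = 0.0224) and Hspb1 (adjusted p = 0.0244), and a fit to the libraries of these 2 groups alone called 4, with Hsph1 in addition. Over all genes DESeq2 called 876 and the fit to 2 groups 375, where the main fit called 486.

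**Figure D3:**
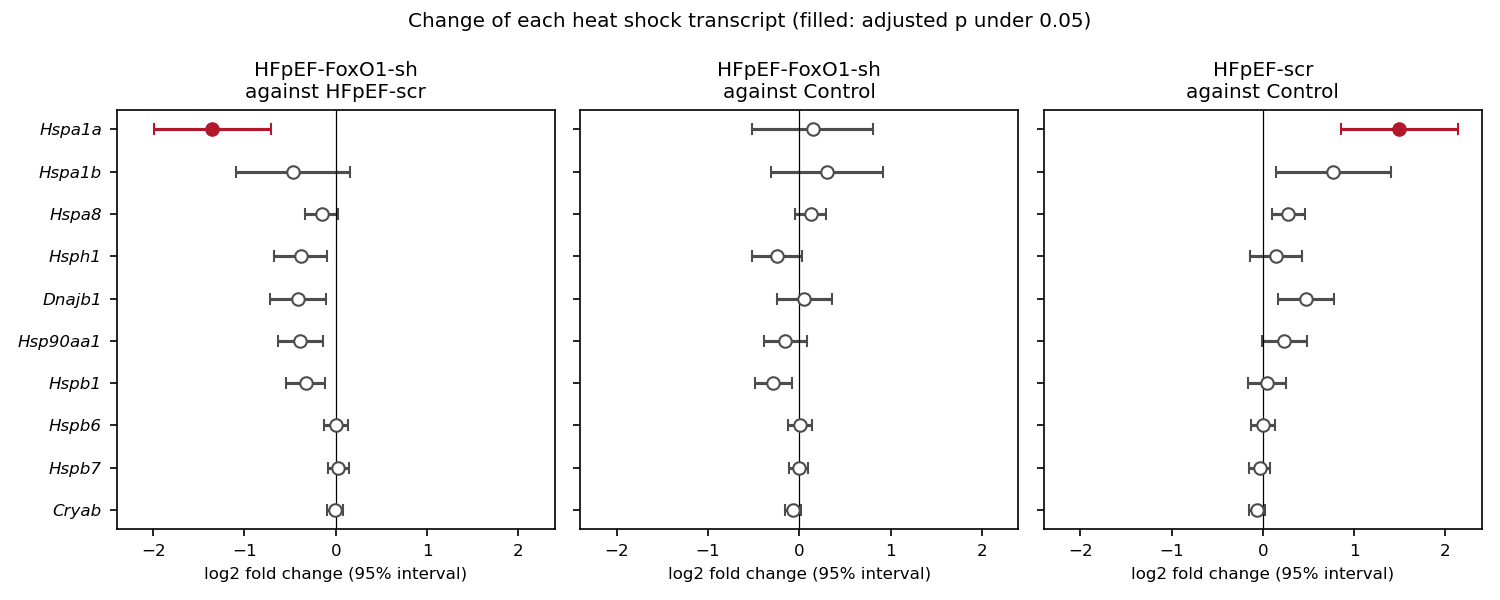
Log2 fold change of each member with its 95% interval in HFpEF-FoxO1-sh against HFpEF-scr, HFpEF-FoxO1-sh against Control and HFpEF-scr against Control, from 1 fit to all 14 libraries. Filled marks have an adjusted p under 0.05, which only Hspa1a reached, at -1.35 against HFpEF-scr and as 1.50 for HFpEF-scr against Control. The intervals of Hspb6, Hspb7 and Cryab are narrow and cover 0 in all 3 panels.

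The last comparison sets the hearts with the FoxO1 hairpin against Control hearts, and it shares its libraries with both others. None of the 10 members was called by edgeR, where 13% of all genes tested were called, and 0 of 10 had groups without overlap, where 12.1% of all genes did. At an unadjusted p under 0.05 the count was 1, Hspb1, where 27% of all genes passed that threshold. DESeq2 called 1 member, again Hspb1 (adjusted p = 0.0264), and limma voom called 0. Over all genes they called 1962 and 1753, where edgeR called 1760. Hspb1 averaged 157.5 ± 16.6 CPM in HFpEF-FoxO1-sh (SD, n = 5) and 191.8 ± 30.3 CPM in Control libraries (SD, n = 5), with a log2 fold change of -0.28 ± 0.09 (edgeR adjusted p = 0.0583). Its groups overlapped, since Control 2 and Control 4 had 162.0 and 166.1 CPM. Hspa1a averaged 5.65 ± 1.98 CPM in HFpEF-FoxO1-sh and 4.92 ± 2.67 CPM in Control libraries, a log2 fold change of 0.15 with a 95% interval of -0.52 to 0.81, which does not show that the levels are the same.

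Without Control 1, the same comparison gained 1 call. Hspa8 measured 1742, 1675, 1729, 1560 and 1649 CPM in HFpEF-FoxO1-sh 1 to 5, against 1464, 1414, 1428 and 1441 CPM in Control 2 to 5. The groups then did not overlap, and Hspa8 rose 1.16-fold (log2 fold change 0.22 ± 0.06, edgeR adjusted p = 0.0278). Of all genes, 11% were called, 5.68% were called as rises and 8.17% lay above without overlap. With all libraries Hspa8 had a log2 fold change of 0.12 (edgeR adjusted p = 0.354). Control 1 was chosen after its values were seen and was the highest Control library in Hspa8. Leaving it out raises this fold change and removes overlap by construction. The SE and adjusted p without Control 1 are a description and no test of Hspa8. The shares give no measure of how unusual the call is. Without Control 1 the log2 fold change of Hspb1 was -0.20 ± 0.08 (edgeR adjusted p = 0.145) and that of Hsp90aa1 was 0.01 ± 0.05.

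Because reads of Hspa1a and Hspa1b can be exchanged, both counts were also added. The sum was 8.17, 13.8, 11.7, 9.01 and 14.0 CPM in HFpEF-FoxO1-sh 1 to 5, 22.8, 22.6, 15.9 and 27.8 CPM in HFpEF-scr 1 to 4, and 17.7, 6.75, 7.50, 7.14 and 8.04 CPM in Control 1 to 5. All HFpEF-scr libraries lay above all HFpEF-FoxO1-sh libraries, and Control 1 lay above HFpEF-scr 3. The sum in HFpEF-scr was 2.30-fold that of Control (log2 fold change 1.20 ± 0.25, edgeR adjusted p = 0.0112), and in HFpEF-FoxO1-sh it was 0.509 of that in HFpEF-scr (log2 fold change -0.97 ± 0.25, edgeR adjusted p = 0.0447). The share of the sum assigned to Hspa1a was 36.9% to 63.9% in HFpEF-FoxO1-sh, 56.9% to 76.4% in HFpEF-scr and 44.0% to 70.1% in Control libraries. The fold changes of the sum were smaller than those of Hspa1a alone, and both calls were kept.

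The muscle-enriched small heat shock transcripts were not called in any comparison, and their means lay close together in all 3 groups. Cryab, which binds desmin and titin, measured 1083, 1138, 1068, 1114 and 1039 CPM in HFpEF-FoxO1-sh 1 to 5, 1158, 1077, 1102 and 1038 CPM in HFpEF-scr 1 to 4, and 1175, 1098, 1189, 1074 and 1183 CPM in Control 1 to 5. All 3 groups overlapped. The 95% interval for Cryab in HFpEF-scr against Control ran from a change of -10.3% to 1.90%, and for HFpEF-FoxO1-sh against HFpEF-scr from -6.62% to 6.08%. Hspb6, a small heat shock protein phosphorylated by protein kinase A in heart muscle, averaged 1230 ± 104 CPM in HFpEF-FoxO1-sh (SD, n = 5), 1226 ± 36.1 CPM in HFpEF-scr (SD, n = 4) and 1223 ± 96.9 CPM in Control libraries (SD, n = 5). Its interval for HFpEF-scr against Control ran from -8.67% to 10.1%. Hspb7, which binds filamin C and is required in the developing mouse heart, averaged 2741 ± 138 CPM in HFpEF-FoxO1-sh, 2688 ± 73.4 CPM in HFpEF-scr and 2754 ± 222 CPM in Control libraries. Its interval for HFpEF-scr against Control ran from -9.73% to 5.56%. Changes larger than these bounds lie outside the 95% intervals of these comparisons.

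Hspb2, which starts next to Cryab on the opposite strand and is also a muscle small heat shock gene, was not called either. It averaged 40.8 ± 3.44 CPM in HFpEF-FoxO1-sh (SD, n = 5), 35.4 ± 3.62 CPM in HFpEF-scr (SD, n = 4) and 37.6 ± 4.38 CPM in Control libraries (SD, n = 5). Reads from the overlap of the pair cannot be assigned without strand. Hspb8, partner of the co-chaperone Bag3 in the disposal of damaged filamin, averaged 547 CPM in HFpEF-FoxO1-sh, 550 CPM in HFpEF-scr and 505 CPM in Control libraries, with a log2 fold change of 0.12 ± 0.07 for HFpEF-scr against Control (edgeR adjusted p = 0.278).

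Immediate early genes, which are transcribed within minutes of many stimuli, also differed between the groups, some of them past the test. The immediate early score of a library is the average over 27 such genes, among them Fos, Egr1 and Atf3, of their log2 CPM. It ran from 3.67 to 5.59 in HFpEF-FoxO1-sh (median 4.91), from 4.68 to 6.69 in HFpEF-scr (median 5.95) and from 3.54 to 5.99 in Control libraries (median 4.50). In HFpEF-scr against Control, 27 of the 27 genes had a higher mean and 6 were called, where 7.37% of all genes were. In HFpEF-FoxO1-sh against HFpEF-scr, 26 of 27 were lower and 5 were called, where 3.58% of all genes were. HFpEF-scr 3, with the lowest score of its group, also had the lowest Hspa1a and the lowest sum of Hspa1a and Hspa1b of its group. Control 5 had the highest score of the Control libraries and an Hspa1a level of 3.54 CPM, and Control 1 had the highest Hspa1a of the Control libraries and a score of 4.45. HFpEF-FoxO1-sh 2 and 5 had the highest scores of their group (5.59 and 5.55) and the highest sums (13.8 and 14.0 CPM). HFpEF-FoxO1-sh 1 had the lowest score (3.67) and the lowest sum (8.17 CPM). Between them, HFpEF-FoxO1-sh 4 had a higher score than HFpEF-FoxO1-sh 3 (4.91 and 4.56) and a lower sum (9.01 and 11.7 CPM). The part of the immediate early response in the Hspa1a changes was not tested.

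With the score as a covariate, Hspa1a had a log2 fold change of 1.18 in HFpEF-scr against Control (edgeR adjusted p = 0.0786) and of -1.10 in HFpEF-FoxO1-sh against HFpEF-scr (edgeR adjusted p = 0.0917), and neither was called. Over the 18 alternatives tried for HFpEF-scr against Control, the adjusted p of Hspa1a lay between 5.44e-04 and 0.0786, and that covariate was the 1 alternative of the 18 that ended the call. Other marker levels also differed between groups. The 7 macrophage markers tested summed to between 143 and 181 CPM in HFpEF-FoxO1-sh, 189 and 247 CPM in HFpEF-scr and 210 and 281 CPM in Control libraries. The 7 fibroblast markers summed to between 622 and 787 CPM in HFpEF-FoxO1-sh, 761 and 864 CPM in HFpEF-scr and 690 and 793 CPM in Control libraries. Their average log2 CPM was 5.62 to 5.96 in HFpEF-FoxO1-sh, 5.99 to 6.18 in HFpEF-scr and 5.78 to 5.99 in Control libraries. On that scale HFpEF-FoxO1-sh lay below HFpEF-scr without overlap. The average log2 CPM of 10 pericyte and smooth muscle markers was 5.59 to 5.81 in HFpEF-FoxO1-sh, 5.80 to 5.96 in HFpEF-scr and 5.59 to 5.74 in Control libraries, and HFpEF-scr did not overlap with Control. Summed, these markers did overlap between HFpEF-scr (1322 to 1423 CPM) and Control libraries (1218 to 1375 CPM). The average log2 CPM of 12 glucocorticoid response genes had medians of 5.26 in HFpEF-FoxO1-sh, 5.75 in HFpEF-scr and 4.96 in Control libraries, and HFpEF-scr 3 was again the lowest of its group, at 4.89. Of 13 circadian clock genes, 7 were higher and 4 lower at an unadjusted p under 0.05 in HFpEF-FoxO1-sh against HFpEF-scr. Of all genes, 19.7% passed that threshold. By edgeR 2 of the 13 were called, both as falls, where 3.58% of all genes were called. In HFpEF-FoxO1-sh against Control 4 rose and 3 fell, where 13% were called, and in HFpEF-scr against Control 0 were called. The part of these cell types and genes in the changes of the heat shock transcripts was not tested.

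**Figure D4:**
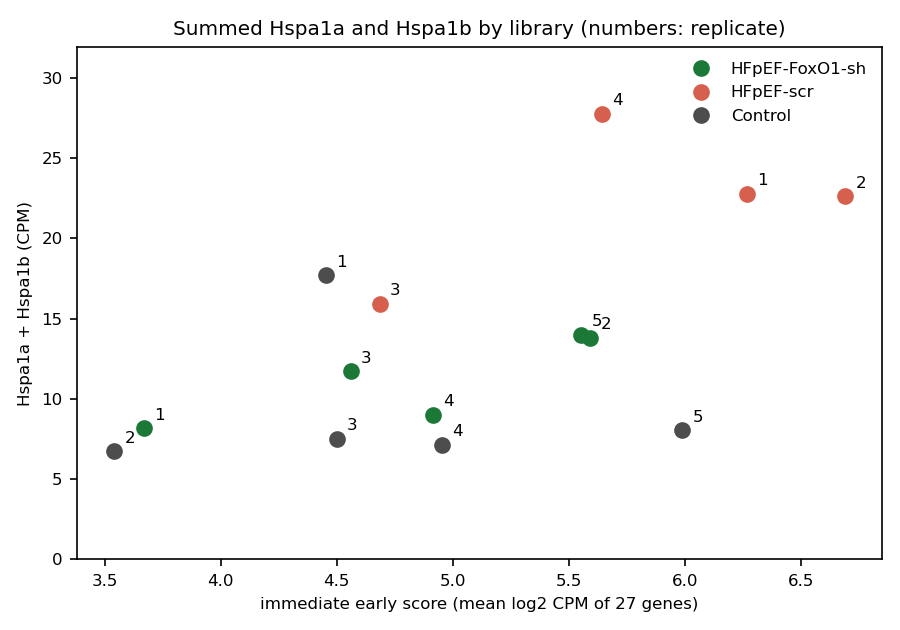
Sum of Hspa1a and Hspa1b in CPM against the immediate early score (mean log2 CPM of 27 genes) in each of the 14 libraries, coloured by group and numbered by replicate. The HFpEF-scr libraries with scores above 5 have sums from 22.6 to 27.8 CPM. Control 5, at a score of 5.99, has 8.04 CPM, and Control 1, at 4.45, has 17.7 CPM. HFpEF-FoxO1-sh 1, at 3.67, has 8.17 CPM, and HFpEF-FoxO1-sh 2, at 5.59, has 13.8 CPM.

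Beyond the 10 members, 8 lists of other chaperones, co-chaperones and heat shock factors held 72 genes tested. In HFpEF-scr against Control, 5 of the 72 rose and 1 fell, where 7.37% of all genes were called, so the count is close to that share. The rises were Hspa4, an HSP110 (log2 fold change 0.15 ± 0.04, edgeR adjusted p = 0.0321), Dnajb4, a J-domain protein of muscle (0.31 ± 0.09, adjusted p = 0.0398), Ptges3, the HSP90 co-chaperone p23 (0.25 ± 0.05, adjusted p = 0.00957), Hspd1, the mitochondrial HSP60 (0.22 ± 0.04, adjusted p = 0.00442), and Dnajc3, a J-domain protein of the endoplasmic reticulum (0.32 ± 0.06, adjusted p = 0.00586). The calls of Ptges3, Hspd1 and Dnajc3 were kept in all 18 alternatives, and those of Hspa4 and Dnajb4 in 9 of 18 each. None of the 4 genes for heat shock factors and their regulator was called in this comparison by edgeR, DESeq2 or limma voom. The same held for the 8 subunits of the cytosolic chaperonin, and for both lists 0 genes had an unadjusted p under 0.05. Hsf1 averaged 29.2 CPM in HFpEF-scr and 30.7 CPM in Control libraries.

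In HFpEF-FoxO1-sh against HFpEF-scr, 0 of the 72 genes were called by edgeR, 0 by limma voom and 8 by DESeq2. Over all genes these tools called 486, 411 and 876, in that order. Of the 72, 22 had an unadjusted p under 0.05, where 19.7% of all genes did. Of the 14 chaperones of the endoplasmic reticulum, 10 were lower and 1 was higher at that unadjusted p, where 10.4% of all genes were lower. None was called by edgeR, and 5 of the 8 DESeq2 calls were in this list. Pdia6 had a log2 fold change of -0.18 ± 0.05 (edgeR adjusted p = 0.0684) and Dnajb9 of 0.14 ± 0.05 (edgeR adjusted p = 0.133). The closest relative of the inducible pair, Hspa1l, averaged 10.8 CPM in HFpEF-FoxO1-sh and 14.4 CPM in HFpEF-scr, without overlap of the groups (log2 fold change -0.42 ± 0.12, edgeR adjusted p = 0.0565). It shares 7.95% of the 50-base stretches of Hspa1a. In HFpEF-FoxO1-sh against Control, 7 of the 72 rose and 6 fell, where 13% of all genes were called. Hspd1 averaged 619 ± 17.1 CPM in HFpEF-FoxO1-sh and 513 ± 16.1 CPM in Control libraries (SD, n = 5 each, log2 fold change 0.27 ± 0.04, edgeR adjusted p = 3.06e-04). Among the falls were Sdf2l1 (-1.12 ± 0.19, edgeR adjusted p = 0.00102) and the calcium-binding lectin chaperone Calr (-0.21 ± 0.04, edgeR adjusted p = 0.00412), both of the endoplasmic reticulum. All 3 of these calls were kept in each of 19 alternatives.

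A list of 7 genes for filament and Z-disc partners of small heat shock proteins held calls in both directions. Flnc, which encodes filamin C, averaged 572 ± 28.0 CPM in HFpEF-FoxO1-sh (SD, n = 5) and 681 ± 49.7 CPM in HFpEF-scr (SD, n = 4), and fell with a log2 fold change of -0.25 ± 0.06 (edgeR adjusted p = 0.0240, a call kept in 12 of 18 alternatives). Synpo2l, another Z-disc gene, averaged 172 ± 16.9 CPM in HFpEF-FoxO1-sh and 216 ± 21.5 CPM in Control libraries (SD, n = 5 each) and fell with a log2 fold change of -0.33 ± 0.08 (edgeR adjusted p = 0.0123, kept in 19 of 19). Sqstm1, which encodes the autophagy receptor p62, averaged 483 ± 16.1 CPM in HFpEF-FoxO1-sh and 422 ± 29.8 CPM in Control libraries (SD, n = 5 each) and rose with a log2 fold change of 0.19 ± 0.05 (edgeR adjusted p = 0.0300, kept in 14 of 19). Of the 7 genes, 1 fell in HFpEF-scr against Control (Ldb3, a Z-disc protein, log2 fold change -0.14 ± 0.04, edgeR adjusted p = 0.0320), where 7.37% of all genes were called. The Ldb3 call was kept in 8 of 18 alternatives there, and in 7 of 19 for HFpEF-FoxO1-sh against Control. In HFpEF-FoxO1-sh against HFpEF-scr 1 fell, where 3.58% of all genes were called, and in HFpEF-FoxO1-sh against Control 1 rose and 3 fell, where 13% were called. With 7 genes these counts are small.

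Rbm3, a cold-inducible RNA-binding protein that goes down with warming in cultured cells, fell in HFpEF-scr against Control. It averaged 65.5 ± 2.67 CPM in HFpEF-scr (SD, n = 4) and 83.3 ± 9.36 CPM in Control libraries (SD, n = 5), without overlap of the groups (log2 fold change -0.34 ± 0.07, edgeR adjusted p = 0.0116, kept in all 18 alternatives). In HFpEF-FoxO1-sh it averaged 70.7 ± 4.42 CPM (SD, n = 5), a log2 fold change of 0.11 ± 0.07 against HFpEF-scr (edgeR adjusted p = 0.437). Against Control it fell in HFpEF-FoxO1-sh by 0.23 on the log2 scale (edgeR adjusted p = 0.0350, kept in 12 of 19 alternatives). The other gene of this list, Cirbp, was not called in any comparison. In HFpEF-scr against Control it was lower at an unadjusted p under 0.05, where 23.6% of all genes passed. The median log2 fold change of the 2 genes there was -0.35. Control 1 had the lowest Rbm3 of the Control libraries, 68.6 CPM, where HFpEF-scr 4 had 67.7 CPM. Both genes summed to 110.5 CPM in Control 1, 146.5, 161.5, 171.7 and 166.7 CPM in Control 2 to 5, and 112.3 to 133.9 CPM in HFpEF-scr. The cause was not tested.

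Within groups, the genes whose levels followed Hspa1a most closely over the 14 libraries, after each gene was centred on its group mean, were Nos1ap (Pearson r = 0.89, Spearman rho = 0.81), Hspa5 (0.89 and 0.85), Prdm2 (0.86 and 0.74), Meis2 (0.85 and 0.85) and Set (0.85 and 0.87). Those closest to Cryab were Tuba1c (0.92 and 0.95), Atp6v1e1 (0.88 and 0.82), Kti12 (0.88 and 0.91), Trim36 (0.88 and 0.81) and Ccz1 (0.87 and 0.88). These are the highest values among 13588 genes in libraries that share depth and scaling, and they are given as a description without a test.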

How the data were processed

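Per the labels' protocols, poly(A) selection of left ventricular RNA was followed by a Swift Biosciences library kit. Bowtie2 2.1.0, RSEM 1.2.15 and mm10 are named in the submitters' processing notes without role or order, and annotation, filters, strand and read layout are not given in the sources used here. The deposited table holds RSEM expected counts per gene from the authors, of which 15.1% to 16.4% per library were not whole. 27 rows in it had names turned into dates.

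Expected counts were rounded and analysed in edgeR 4.0.16 (R 4.3.3). Genes passing filterByExpr on the groups (13588) were scaled by TMM, and all 14 libraries entered 1 quasi-likelihood fit by group, with no other term. Each comparison was a two-sided contrast with Benjamini-Hochberg adjustment over all genes tested, and calls have an adjusted p under 0.05. CPM are per 1000000 after TMM. SE were computed from the F statistic, and the script was tested on simulated counts. Alternatives were DESeq2 1.42.0, its size factors, limma voom (limma 3.58.1), other filters, a replicate block, the immediate early score as a covariate, summed Hspa1a and Hspa1b, the libraries of 2 groups alone and each library left out. No library pair of a group agreed within counting noise.

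The members and gene lists were chosen with earlier results of these data known. The rule for named genes took all members, Foxo1, Hspb2, up to 4 called genes of smallest p from each chaperone list and the 5 genes most like Hspa1a and Cryab. Hspa1l, Hspb8, Hsf1, Cirbp, Nppa and Myl4 were added after their values were seen. Positions come from GENCODE vM21 (GRCm38) and promoters from RefSeq (GRCm38.p6). Shared sequence was counted over stretches of 50 bases of the main transcript. Depth sets the precision of the rarest members: Hspa1a had between 41.0 and 256 counts per library.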

Additional observations from a re-analysis of the deposited data

Results flagged for a closer look

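Among the 30 groups of values (10 members in 3 groups), 3 held a library far from the others of its group. By the same measure (Dixon's gap over range), chance gives about 1 in 20 among independent groups with a normal spread. These groups share libraries, and Control 1 was flagged more than once, so that rate gives no test here. Hspa8 in Control 1 stood at 1920 CPM, where the other Control libraries had 1414 to 1464 CPM. Hsp90aa1 in Control 1 stood at 220.3 CPM, where the other Control libraries had 126.5 to 151.2 CPM. Dnajb1 in HFpEF-scr 4 stood at 24.6 CPM, where the other HFpEF-scr libraries had 16.9 to 17.7 CPM.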

How the results depend on the processing

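The count of members called (1 for HFpEF-scr against Control, 1 for HFpEF-FoxO1-sh against HFpEF-scr and 0 for HFpEF-FoxO1-sh against Control) was 3, 3 and 1 with DESeq2 and 0, 0 and 1 with the immediate early score as covariate. With the libraries of the 2 groups alone it was 4 for HFpEF-FoxO1-sh against HFpEF-scr. With 1 library left out at a time it ranged from 1 to 6, from 0 to 1 and from 0 to 1 in the same order. The count of all genes called was 1001, 486 and 1760. In the same order it was 1302, 876 and 1962 with DESeq2 and 407, 262 and 1752 with the score as covariate. With the libraries of the 2 groups alone it was 504, 375 and 2080. With 1 library left out it ranged from 537 to 1106, from 162 to 668 and from 1228 to 1683. Replicate numbers did not pair the libraries: of 13 same-numbered pairs, 1 correlated above 0.1 (range -0.19 to 0.11). Each library was also set against every other group that holds its number, which made 26 cases. In 4 of these the best correlation was with its own number. With the numbers as a block, HFpEF-FoxO1-sh against HFpEF-scr gave 291 genes called, and no count of members called changed.

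Each other change of direction concerned a log2 fold change that was not called. For HFpEF-scr against Control, Hspb6 was -0.00493 with the replicate block and -0.0210 with the score as covariate, and Hspb1 was -0.0951 with that covariate. For HFpEF-FoxO1-sh against HFpEF-scr, Hspb6 was -0.000502 with no filter and -0.00123 with the 2 groups alone, and with the covariate Cryab was 0.00858 and Foxo1 0.0257. With 1 library left out at a time, ranges for HFpEF-scr against Control were -0.00867 to 0.131 for Hspb1, -0.0268 to 0.0272 for Hspb6, -0.0650 to 0.0139 for Hspb7 and -0.0709 to 0.0193 for Foxo1. For HFpEF-FoxO1-sh against HFpEF-scr they were -0.0255 to 0.0459 for Hspb6, -0.0306 to 0.0235 for Cryab and -0.0753 to 0.0152 for Foxo1. For HFpEF-FoxO1-sh against Control they were -0.0632 to 0.571 for Hspa1a, -0.0441 to 0.130 for Dnajb1, -0.217 to 0.0116 for Hsp90aa1, -0.0267 to 0.0498 for Hspb6 and -0.0371 to 0.0417 for Hspb7. The causes were not tested.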
